A study of Mus musculus with 6 samples.

Results

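The tenascin, lectican and hyaluronan matrix is described here through 10 genes: the tenascins Tnc and Tnr, the lecticans Vcan, Bcan and Ncan, the membrane proteoglycans Cspg4, Cspg5 and Ptprz1, the link protein Hapln1 and the hyaluronan receptor Cd44. Every probe set of the array that is annotated to exactly 1 of these symbols was taken, which gave 30 probe sets of 34945 that name a single gene, and 10 genes of 18193. The arrays measured total RNA of mouse neural stem cells in which green fluorescent protein (GFP) reports Spot14, the product of the thyroid hormone responsive gene Thrsp. The series holds 3 arrays of Spot14 GFP positive cells and 3 of Spot14 GFP negative cells, which the labels call biological replicates. No strain, age, culture condition, treatment or sorting gate is given in the sources used here, nor is it said whether replicates came from separate animals or cultures, so that p-values measure the spread between these samples. The series title speaks of fatty acid synthesis in adult neural stem cells, and the question taken here is which genes of this matrix differ between cells with and without the reporter signal.

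The matrix of the brain holds little fibrous collagen and is built around hyaluronan, a long sugar chain made at the cell membrane. Lecticans are chondroitin sulphate proteoglycans that bind hyaluronan with one end and tenascins with the other, and link proteins fasten the first of these bonds. Tenascin C and several chondroitin sulphate proteoglycans are known from the germinal zones of the brain, where they surround stem and progenitor cells, while tenascin R and the link protein belong mainly to the matrix of the maturing brain.

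GFP positive cells had less Tnc and less Vcan RNA than GFP negative cells, and no member of the matrix passed the test in the other direction. Tnc was 4.69-fold lower and Vcan 2.05-fold lower. Cspg4 measured 2.48-fold lower and did not pass. Bcan, Ncan, Cspg5, Ptprz1 and Cd44 gave clear signal on all arrays and did not pass either, with differences of 0.19 to 0.77 on the log2 scale toward GFP positive cells. Tnr and Hapln1 lay near background on every array. Each gene was read from its brightest probe set, and differences are GFP positive minus GFP negative. Of the 8 members bright enough to test (log2 4 or more on at least 3 of 6 arrays), 2 fell and 0 rose at a limma adjusted p under 0.05, set against 4.46% of all 10531 genes tested in either direction and 2.11% lower. By the unadjusted limma p, 3 members were lower at the 0.05 level and 0 higher, where 8.28% of all genes tested were lower and 9.92% higher. The median difference of the 8 members was 0.22, that of all genes tested 0.00. In bulk RNA, fewer cells that express a gene and less of its RNA per cell cannot be told apart.

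RefSeq promoter windows matched 9 of the 10 members, all but Cspg5. The 250 bases before the annotated start are shown for Tnc and Vcan because these are the 2 members that fell. They lie on the minus strand of mouse assembly GRCm38.p6 at chr4:64047016-64047265 and chr13:89742513-89742762 and are written 5′ to 3′ along the gene. Capitals mark matches, on either strand, to 5 short motifs: TATAAA (the TATA box), CCAAT (the CCAAT box), GGGCGG (the GC box), TGANTCA (an AP-1 site) and AGGTCA (the half-site of nuclear receptors such as that for thyroid hormone).
Tnc: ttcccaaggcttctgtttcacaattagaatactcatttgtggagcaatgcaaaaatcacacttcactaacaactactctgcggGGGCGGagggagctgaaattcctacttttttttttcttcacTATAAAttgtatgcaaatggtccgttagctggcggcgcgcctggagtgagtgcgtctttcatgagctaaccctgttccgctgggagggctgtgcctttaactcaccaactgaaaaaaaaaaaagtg
Vcan: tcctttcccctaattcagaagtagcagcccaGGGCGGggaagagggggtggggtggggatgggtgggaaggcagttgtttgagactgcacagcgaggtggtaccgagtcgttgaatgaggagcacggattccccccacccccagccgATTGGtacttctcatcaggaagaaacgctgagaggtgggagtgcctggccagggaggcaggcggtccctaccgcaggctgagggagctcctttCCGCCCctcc

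TATAAA stood 126 bases before the Tnc start and CCAAT 103 bases before the Vcan start on the opposite strand, and both windows held GGGCGG. Among all 32851 promoter windows, TATAAA occurred in 12.4%, CCAAT in 33.8% and GGGCGG in 32.7%. TATAAA was also found for Ncan, CCAAT for Bcan, and GGGCGG for Bcan, Ncan, Cspg4 and Ptprz1, which did not pass. TGANTCA and AGGTCA, in 6.75% and 14.0% of all windows, were in the window of 0 members. RefSeq lists 2 starts for Tnc, 79 bases apart, and the one farther upstream is shown. The matches describe letters in these windows.

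The GFP negative arrays differed among themselves in correlation and in 3′ to 5′ signal. GFP negative replicate 3 correlated with the other GFP negative arrays at 0.952 and 0.954 across the genes tested, against 0.982 between those arrays and 0.985 to 0.993 among GFP positive arrays (genes are not independent replicates). For the Gapdh and beta-actin control transcripts, 3′ signal exceeded 5′ signal by 2.49 on the log2 scale on GFP negative replicate 2, against 1.51 to 1.82 elsewhere. Thrsp itself read 14.13 to 14.32 on GFP positive and 13.41 to 13.71 on GFP negative arrays (limma adjusted p = 0.0893). Of 9 neural stem cell markers on the array, 8 were bright enough to test, and the mean log2 level of the list was 9.99 to 10.08 on GFP positive arrays, against 9.58 to 9.76 on GFP negative arrays, with signal in both groups. Of these 8 markers 1 rose, Nr2e1 (0.86, limma adjusted p = 0.0308), and 0 fell, where 2.35% of all genes tested rose and 2.11% fell. For 6 markers all GFP positive arrays were above the GFP negative range, against 1455 of all 10531 genes tested. Nes (−0.49) and Fabp7 (−0.01) measured lower in GFP positive cells without passing. Prom1, not tested, averaged 2.53 on GFP positive and 3.00 on GFP negative arrays.

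Tnc encodes tenascin C, a glycoprotein of several arms that binds lecticans and integrins and modulates growth factor signalling. Its brightest probe set, 1416342_at, read 9.07, 9.40 and 8.81 on the GFP positive arrays, against 10.94, 11.18 and 11.84 on the GFP negative arrays. All GFP positive arrays lay below all GFP negative arrays, with a gap of more than 1 log2 unit between the groups. Tnc averaged 9.09 ± 0.29 in GFP positive cells and 11.32 ± 0.46 in GFP negative cells (SD, n = 3 each). The difference was −2.23 with a standard error of 0.28 (limma adjusted p = 0.0120), and its 95% interval, −2.88 to −1.57, is 2.97-fold to 7.38-fold lower. The other probe set, 1456344_at, read 8.26, 8.52 and 8.53 in GFP positive and 9.81, 10.68 and 9.82 in GFP negative arrays. It showed the same order of the groups and fell by 1.67 on the log2 scale in the fit of 18742 probe sets (limma adjusted p = 0.0342). An exact 2-sided permutation test of the brightest probe set gave p = 0.1, the smallest that 3 against 3 arrays allows. The difference was −1.97 without GFP negative replicate 3 (limma adjusted p = 0.0065), the array with the highest Tnc value. Tnc did not pass without GFP positive replicate 1 (−2.22, limma adjusted p = 0.0784) or replicate 3 (−2.09, 0.0649), nor with the 3′ to 5′ signal as a covariate (−2.20, 0.0783). With the replicate number as a block Tnc did not pass either (−2.23, limma adjusted p = 0.0544).

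Tnr encodes tenascin R, the tenascin of myelinating glia and of the nets around mature neurons. Its single probe set, 1436148_at, read 2.41 to 2.50 on GFP positive and 2.38 to 2.49 on GFP negative arrays, which is near background, and it was not tested. The remaining tenascins, Tnn and Tnxb, were under log2 4 on every array as well, so that Tnc was the only tenascin with a signal above that level in either group.

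Vcan encodes versican, the lectican of developing and migratory tissue, which carries most of its chondroitin sulphate on large exons that splicing can leave out. Its brightest probe set, 1427256_at, read 9.03, 9.06 and 8.75 in GFP positive cells and 9.93, 10.16 and 9.85 in GFP negative cells. The groups did not overlap, and the spread within each was small (8.94 ± 0.17 against 9.98 ± 0.16, SD, n = 3 each). The difference was −1.04 (SE 0.18, 95% interval −1.47 to −0.61, limma adjusted p = 0.0286), which is 1.52-fold to 2.77-fold lower. Probe set 1421694_a_at read 5.22, 5.83 and 4.90 in GFP positive cells and 6.52, 5.85 and 6.94 in GFP negative cells. Probe set 1427257_at read 5.44, 5.45 and 4.42, against 5.92, 6.14 and 7.07. Both separated the groups in the same order, the first by the narrow gap of GFP positive replicate 2 to GFP negative replicate 2, and measured −1.12 and −1.27 without passing (limma adjusted p = 0.170 and 0.171 over all probe sets). The 5 further Vcan probe sets lay near background, at 2.07 to 2.68 on all arrays, and which transcripts each probe set reads was not analysed here. Vcan passed in only 1 of the 6 fits with an array left out, that without GFP negative replicate 3 (−1.10, limma adjusted p = 0.0154). In the other 5 such fits it measured −1.09 to −0.94 and did not pass (limma adjusted p = 0.0566 to 0.139). With the 3′ to 5′ signal as a covariate it was −0.94 (0.145), and with the replicate number as a block −1.04 (0.116).

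**Figure D1:**
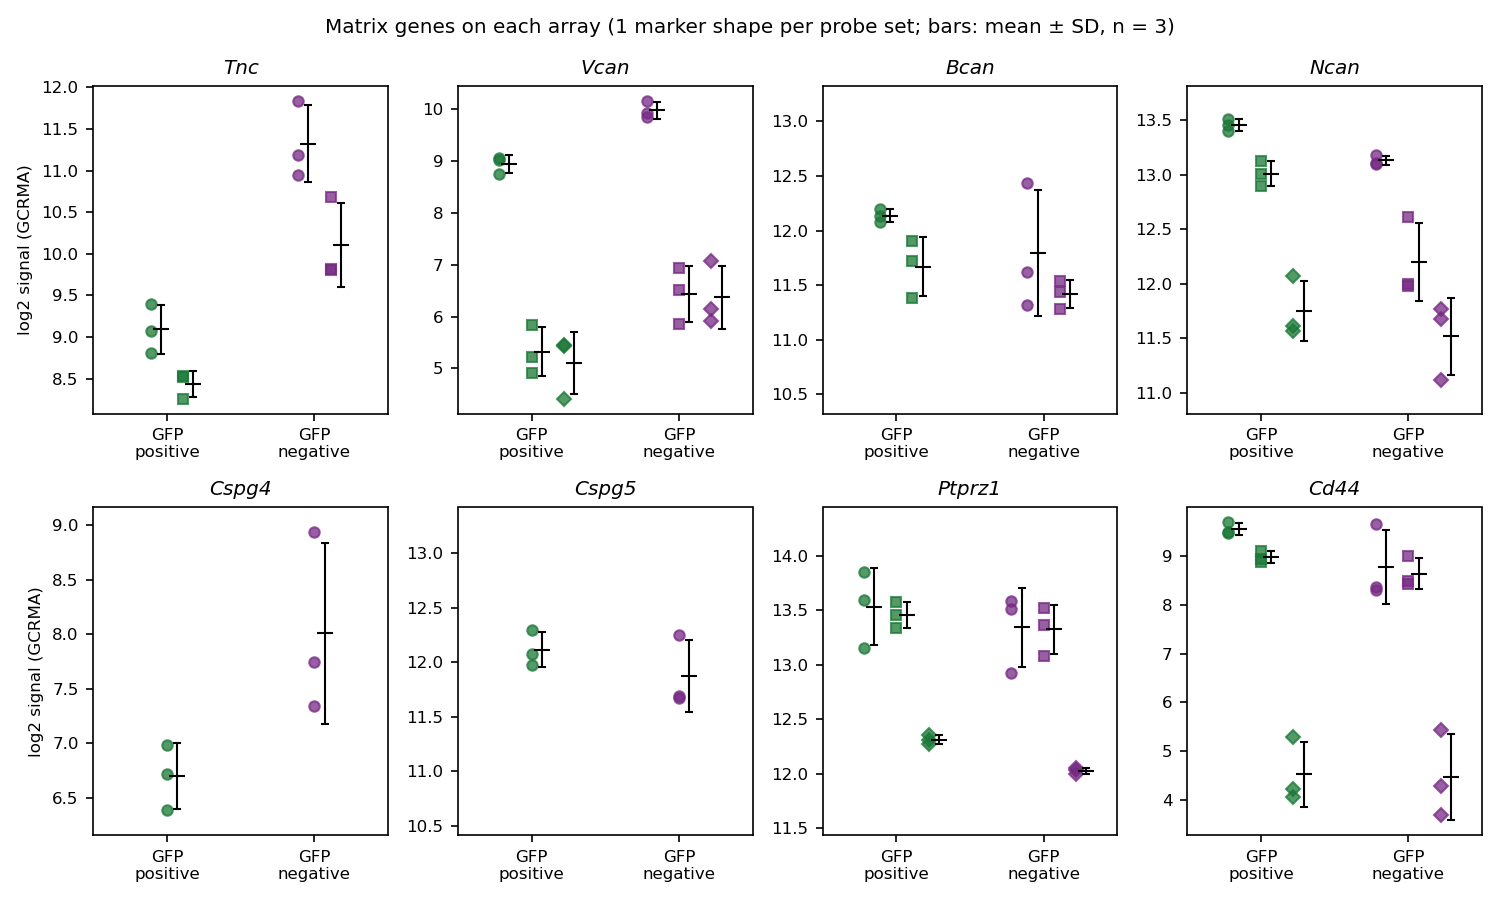
Log2 signal of every tested probe set of 8 matrix genes on each array, with a marker shape per probe set, GFP positive arrays in green on the left and GFP negative arrays in purple on the right, and the mean ± SD (n = 3) beside them; the vertical axes differ between panels. Both Tnc probe sets and the 3 Vcan probe sets lie lower in GFP positive cells without overlap, while Bcan, Cspg5 and Cd44 overlap.

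Bcan and Ncan encode brevican and neurocan, the lecticans made in the central nervous system, by glia and, for neurocan, also by neurons. Bcan probe set 1416718_at read 12.20, 12.08 and 12.13 in GFP positive cells and 11.32, 11.62 and 12.43 in GFP negative cells. GFP negative replicate 3 was above all GFP positive arrays and the other GFP negative arrays were below them. The difference of 0.34 (95% interval −0.34 to 1.03) did not pass (limma adjusted p = 0.624), and without GFP negative replicate 3 it was 0.67 and passed (limma adjusted p = 0.0466). The second Bcan probe set, 1441899_x_at, read 11.38 to 11.91 in GFP positive cells, against 11.29 to 11.54 in GFP negative cells, with the lowest value on that same array.

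Ncan probe set 1434679_at read 13.45, 13.40 and 13.51 in GFP positive cells and 13.18, 13.10 and 13.11 in GFP negative cells. The groups did not overlap and differed by 0.32 (95% interval −0.04 to 0.69, limma adjusted p = 0.345). Probe set 1444020_at averaged 13.01 ± 0.11 in GFP positive cells and 12.20 ± 0.36 in GFP negative cells (SD, n = 3 each), and the lowest GFP positive value, 12.89, was above the highest GFP negative value, 12.61. Its difference of 0.81 (95% interval 0.27 to 1.35) did not pass over all probe sets (limma adjusted p = 0.135). The dimmest Ncan probe set, 1423604_at, overlapped between the groups (0.23, limma adjusted p = 0.730).

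Hapln1 encodes the link protein that fastens lecticans to hyaluronan. Its 4 probe sets read 2.09 to 3.07 on GFP positive and 2.07 to 2.87 on GFP negative arrays, near background. Probe set 1438020_at did not overlap between the groups (2.89 to 3.07 against 2.71 to 2.87), and of the 12 untested probe sets of the matrix the 11 other than that of Cspg4 all stayed at 2.07 to 3.07. These 11 were on average slightly higher on GFP positive arrays and lowest on GFP negative replicate 3, with the 0.17 of 1438020_at as the largest difference among them. Hapln2 and Hapln3 and the lectican Acan were also under log2 4 on every array. Hapln4, the link protein of perineuronal nets, was tested and read 5.19, 4.54 and 4.75 in GFP positive and 4.29, 6.22 and 6.71 in GFP negative cells (−0.91, limma adjusted p = 0.490). GFP negative replicate 1 lay below all GFP positive arrays, and without it the difference was −1.64 (limma adjusted p = 0.0399).

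Cspg4, the proteoglycan NG2, spans the membrane and is known as a marker of oligodendrocyte progenitors and pericytes. Probe set 1423341_at read 6.72, 6.99 and 6.39 in GFP positive cells and 7.34, 7.74 and 8.93 in GFP negative cells. The groups did not overlap, and GFP negative replicate 3 was more than 1 log2 unit above the next array. The difference of −1.31 (SE 0.41, 95% interval −2.26 to −0.36) did not pass (limma adjusted p = 0.134), and it was −0.85 without GFP negative replicate 3 (0.0631). The other Cspg4 probe set, 1450944_at, read 2.84 to 3.01 on 5 arrays and 5.80 on GFP negative replicate 3, and was not tested.

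Markers of the cell types that Cspg4 and Vcan are known from moved as follows. Of 9 oligodendrocyte progenitor markers without Cspg4, 5 were tested and 0 passed, with Nkx2-2 nearest to the threshold (−1.06, limma adjusted p = 0.0570). All 5 were lower in GFP positive cells, against 5210 of all 10531 genes tested. The log2 levels of the 9 markers summed to 56.1 to 57.3 on GFP positive arrays, against 58.6 to 58.7 on GFP negative arrays. Sox10, Gpr17, C1ql1 and Matn4 were under log2 4 on every array, while Olig1 and Olig2 read above log2 12. Of 9 pericyte and smooth muscle markers 6, Pdgfrb and Rgs5 among them, were under log2 4 on every array. That list summed to 33.0 to 34.1 on GFP positive arrays, against 33.3 to 34.6 on GFP negative arrays. Of its 2 tested genes Acta2 fell (−1.29, limma adjusted p = 0.0413) and Notch3 did not pass (0.44), where 2.11% of all genes tested fell. Acta2 read 4.19, 3.92 and 3.76 in GFP positive and 4.79, 5.68 and 5.26 in GFP negative cells. All GFP negative arrays reached log2 4, and of the GFP positive arrays only replicate 1 did. Acta2 thus met the filter through the group where it is high, so that its being tested depended on the difference itself. Its call with an array left out was not examined. The part of these cell types in the differences of Cspg4 and Vcan was not tested. Astrocytes are known to make Cd44, Ptprz1 and the lecticans Bcan and Ncan. Of 8 astrocyte markers, all tested, 4 rose and 0 fell (median 1.09), where 2.35% of all genes tested rose (median 0.00). The log2 levels of the 8 markers summed to 93.8 to 94.3 on GFP positive arrays, against 84.3 to 86.9 on GFP negative arrays. The part of astrocytes in the differences of the members was not tested.

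Cspg5 encodes neuroglycan C, a membrane proteoglycan of the brain with an EGF-like domain. Its single probe set, 1450713_at, read 12.29, 12.08 and 11.97 in GFP positive cells and 11.68, 11.69 and 12.25 in GFP negative cells. GFP negative replicate 3 lay within the GFP positive range and the other GFP negative arrays below it. The difference was 0.24 (95% interval −0.27 to 0.76, limma adjusted p = 0.649) and 0.43 without GFP negative replicate 3 (0.133).

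Ptprz1 encodes a receptor tyrosine phosphatase of glia and neural progenitors that carries chondroitin sulphate and binds tenascins, contactin and pleiotrophin. Probe set 1418690_at read 13.15, 13.59 and 13.85 in GFP positive cells and 13.58, 13.51 and 12.93 in GFP negative cells, and the groups overlapped. The difference was 0.19 (95% interval −0.43 to 0.81, limma adjusted p = 0.787) and −0.02 without GFP negative replicate 3. Probe set 1452284_at overlapped too (0.13). Probe set 1427019_at averaged 12.31 ± 0.041 in GFP positive cells and 12.03 ± 0.028 in GFP negative cells (SD, n = 3 each), the lowest GFP positive value being 12.28 and the highest GFP negative value 12.05. These groups did not overlap, and the difference of 0.28 (95% interval −0.10 to 0.67) did not pass (limma adjusted p = 0.463). The intervals of Ptprz1 and Cspg5 do not show that their levels were alike in the groups.

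Cd44 encodes the main cell surface receptor for hyaluronan, known from astrocytes and their precursors. Probe set 1423760_at read 9.48, 9.47 and 9.68 in GFP positive cells and 9.65, 8.30 and 8.36 in GFP negative cells. GFP negative replicate 1 lay within the GFP positive range, and the other GFP negative arrays were more than 1 log2 unit below it. The difference was 0.77 (SE 0.36, 95% interval −0.08 to 1.63, limma adjusted p = 0.328). Without GFP negative replicate 1 it was 1.21 and passed (limma adjusted p = 0.0325), as did 158 of all 10531 genes tested in the higher direction. With the 3′ to 5′ signal as a covariate the Cd44 difference was 0.36. Probe set 1434376_at read 8.87, 9.11 and 8.94 in GFP positive cells and 9.00, 8.43 and 8.48 in GFP negative cells (0.34, limma adjusted p = 0.523). There too GFP negative replicate 1 lay within the GFP positive range and the other GFP negative arrays below it. Probe set 1452483_a_at read 5.29, 4.07 and 4.23 against 3.70, 4.29 and 5.43, with no separation (0.06). The remaining probe set, 1443265_at, lay near background at 2.37 to 2.50.

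**Figure D2:**
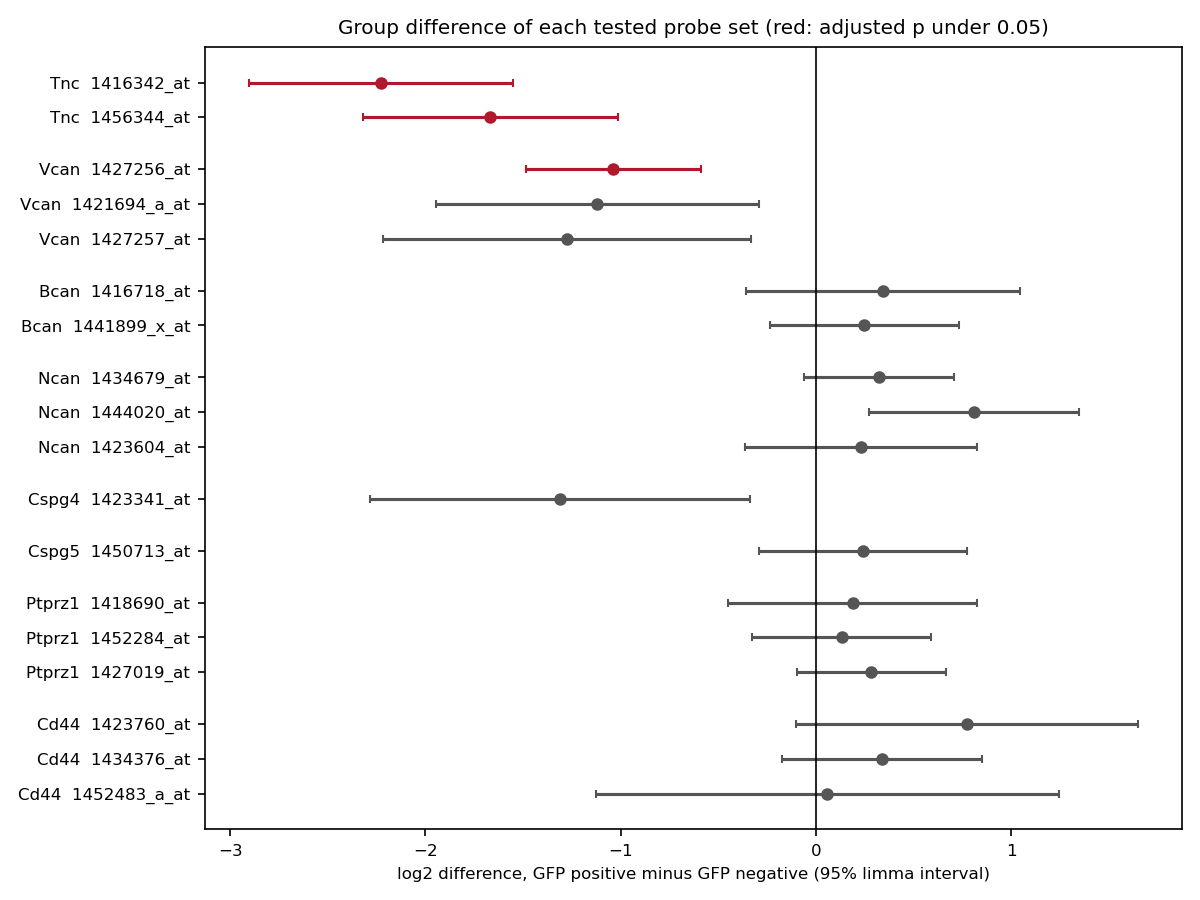
Difference between GFP positive and GFP negative cells on the log2 scale for each of the 18 tested probe sets, with the 95% limma interval from the fit of all probe sets; red marks an adjusted p under 0.05. Both Tnc probe sets and 1 of 3 Vcan probe sets are red, and the 11 probe sets of Bcan, Ncan, Ptprz1 and Cd44 all lie to the right of 0.

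In the fit of all probe sets, 3 of the 18 tested member probe sets fell and 0 rose at a limma adjusted p under 0.05, where 2.37% of all 18742 probe sets passed, 1.07% lower and 1.3% higher. The groups did not overlap for 9 member probe sets, 3 higher and 6 lower, against 23.4% of all probe sets (12.6% higher and 10.8% lower), and for 4 of the 8 member genes against 25.3% of all genes. Probe sets of 1 gene share its RNA and are not independent. Within 6 genes that had several tested probe sets, each further probe set was compared with the brightest on the same array. None of the 10 such contrasts passed in limma, as none of 8210 did over all genes (0%). At an unadjusted p under 0.05 the counts were 0 of 10 and 442 of 8210 (5.38%). All 15 alternatives in which these contrasts were computed also gave 0 at the adjusted threshold. The widest gap was for Cd44 probe set 1452483_a_at against 1423760_at (−0.72, 95% interval −2.50 to 1.07), and the intervals do not show that probe sets moved alike.

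**Figure D3:**
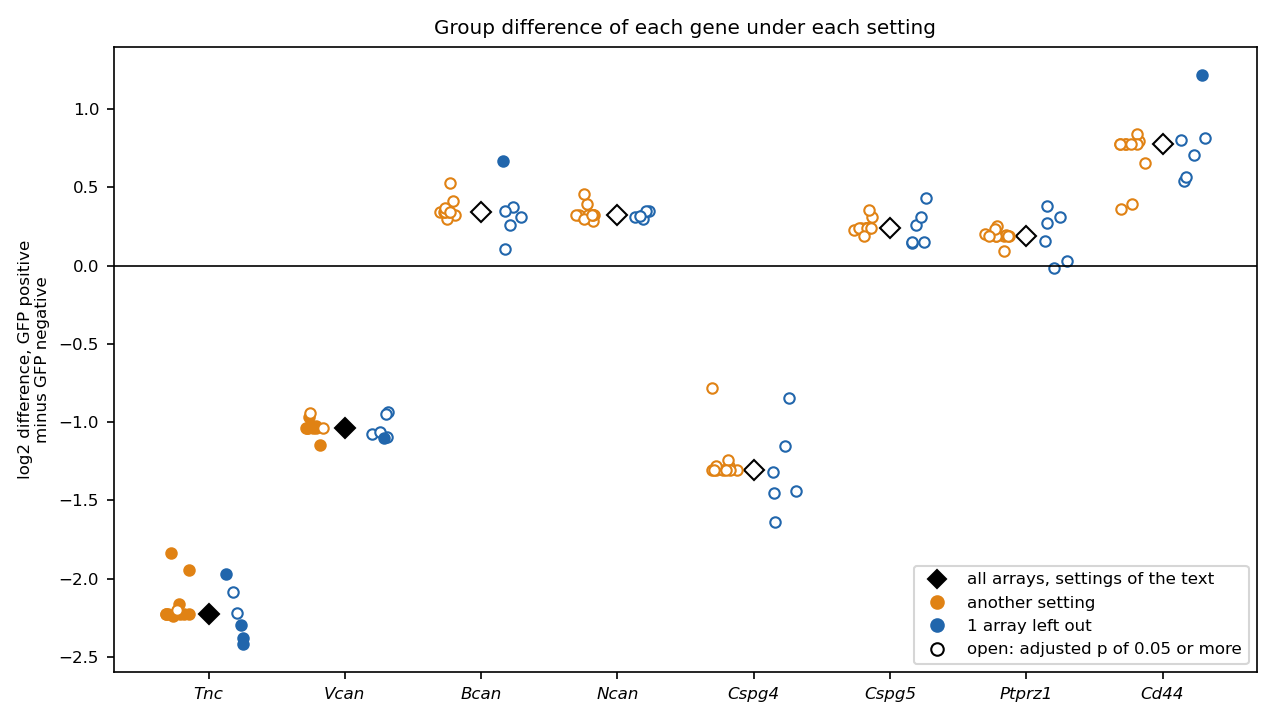
Group difference on the log2 scale of the 8 tested genes with the settings of the text (black diamonds), with another setting on all arrays (orange) and with 1 array left out (blue); filled symbols passed at a limma adjusted p under 0.05. Tnc lies between −2.42 and −1.84 and Vcan between −1.14 and −0.94, while Bcan and Cd44 have 1 filled symbol each.

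The other genes of this matrix were followed in 8 lists, which hold 129 genes with a probe set, 75 of them tested. Of these 75, 3 rose (Itih3, Fmod and Ezr) and 1 fell (Hmmr) at a limma adjusted p under 0.05, set against 2.35% of all genes tested higher and 2.11% lower. Their median difference was 0.05, and 0.00 over all genes tested. Fmod entered the tested genes only through its GFP positive arrays, and with the filter raised to log2 6, where it is not tested, 2 rose and 1 fell. By the unadjusted limma p, 8 of the 75 were higher and 5 lower at the 0.05 level, near the background of 9.92% higher and 8.28% lower over all genes tested.

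Genes that make, cut or bind hyaluronan were mostly near background. Of 23 on the array 7 were tested, with a median of −0.23. Of these 7, 1 rose and 1 fell, where 2.35% of all genes tested rose and 2.11% fell. By the unadjusted limma p 1 was higher and 2 were lower at the 0.05 level, Cemip2 among the latter (−0.48, limma adjusted p = 0.221). Over all genes tested 9.92% were higher and 8.28% lower at that level. Cemip, not tested, read 2.65 to 2.83 on GFP positive and 3.50 to 4.81 on GFP negative arrays. The hyaluronan synthases Has1, Has2 and Has3 were under log2 4 on every array, while Ugdh, which makes their sugar substrate, was measured and did not pass (−0.23, limma adjusted p = 0.605). Itih3, a heavy chain of the inter-alpha-trypsin inhibitor family whose heavy chains are attached to hyaluronan, read 7.05, 7.18 and 7.23 in GFP positive cells and 4.55, 4.27 and 5.23 in GFP negative cells. Every GFP positive array was more than 1 log2 unit above every GFP negative array. Itih3 was 5.56-fold higher (2.47, SE 0.26, limma adjusted p = 0.00919) and lost its call without GFP positive replicate 1 or 3 (0.0625 and 0.0621). Tnfaip6, which transfers these heavy chains to hyaluronan, measured −0.09 (limma adjusted p = 0.928). Hmmr, a hyaluronan-mediated motility receptor that also serves in the mitotic spindle, read 7.14, 7.46 and 6.55 in GFP positive cells and 8.76, 9.39 and 9.25 in GFP negative cells. The Hmmr difference of −2.08 (SE 0.29), or 4.24-fold lower, passed (limma adjusted p = 0.0151) but did not without GFP positive replicate 1 (0.0866), GFP positive replicate 3 (0.0633) or GFP negative replicate 2 (0.0570).

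Enzymes of chondroitin sulphate chains did not pass. Of 26 synthesis genes on the array 21 were tested, 9 positive and 12 negative, with a median of −0.08 and 0 past the threshold. By the unadjusted limma p 1 was higher and 2 were lower at the 0.05 level, against 9.92% and 8.28% of all genes tested. The sulphotransferase Chst11, which acts on chondroitin, read 10.99 ± 0.09 in GFP positive and 11.57 ± 0.23 in GFP negative cells (SD, n = 3 each; −0.58, limma adjusted p = 0.148). Papss1, which makes the sulphate donor, measured 0.12 (limma adjusted p = 0.812). Of 8 lysosomal enzymes that break these chains down, all tested, 6 were positive and 0 passed by limma, nor at an unadjusted p under 0.05 (median 0.15; Hexa 0.38 and Idua 0.19).

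Proteases of this matrix and their inhibitors did not pass either, with 15 of 21 tested and a median of 0.21. By the unadjusted limma p, 2 were higher at the 0.05 level, the inhibitors Timp4 and Timp3, and 0 lower. At that level 9.92% of all genes tested were higher and 8.28% lower. Timp4 read 13.65 ± 0.11 in GFP positive and 12.96 ± 0.13 in GFP negative cells (SD, n = 3 each; 0.68, limma adjusted p = 0.0748). It passed in 5 of 17 alternatives, among them without GFP negative replicate 3 (0.74, limma adjusted p = 0.0310). Adamts1, a protease that cuts versican and aggrecan, measured 0.21 (limma adjusted p = 0.643).

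Among ligands and receptors of tenascins and proteoglycans, 14 of 24 were tested, with a median of 0.10 and 0 past the threshold. By the unadjusted limma p 1 was higher and 1 lower at the 0.05 level, against 9.92% and 8.28% of all genes tested. Ptn, the ligand pleiotrophin of Ptprz1, measured 0.22 (limma adjusted p = 0.765), and Ptprs, a receptor for chondroitin sulphate, 0.20 (0.635). Of 15 small leucine-rich proteoglycans, testicans and serglycin 3 were tested. Fmod, fibromodulin, read 4.43, 4.27 and 4.04 in GFP positive cells and 3.01, 2.90 and 2.89 in GFP negative cells, where it was near background. It was 2.50-fold higher (1.32, SE 0.18, limma adjusted p = 0.0146), a fold that depends on the background estimate, from a probe set with a cross-hybridising suffix. Fmod met the filter at log2 4 only through the GFP positive arrays, the group where it is high, so that its being tested depended on the difference itself. Fitted with no filter on level, it had a limma adjusted p of 0.0211. Of the 6 fits with an array left out, Fmod passed in those without GFP negative replicate 1 or 3, and the limma adjusted p reached 0.0866 in the others. All 6 linkers between Cd44 and the cytoskeleton were tested and 1 rose, where 2.35% of all genes tested rose. Ezr, ezrin, read 8.04, 8.01 and 7.92 in GFP positive and 7.34, 7.02 and 7.08 in GFP negative cells, 1.79-fold higher (0.84, SE 0.17, limma adjusted p = 0.0426). Of the 6 fits with an array left out, Ezr passed in that without GFP negative replicate 3, and the limma adjusted p reached 0.198 in the others.

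**Figure D4:**
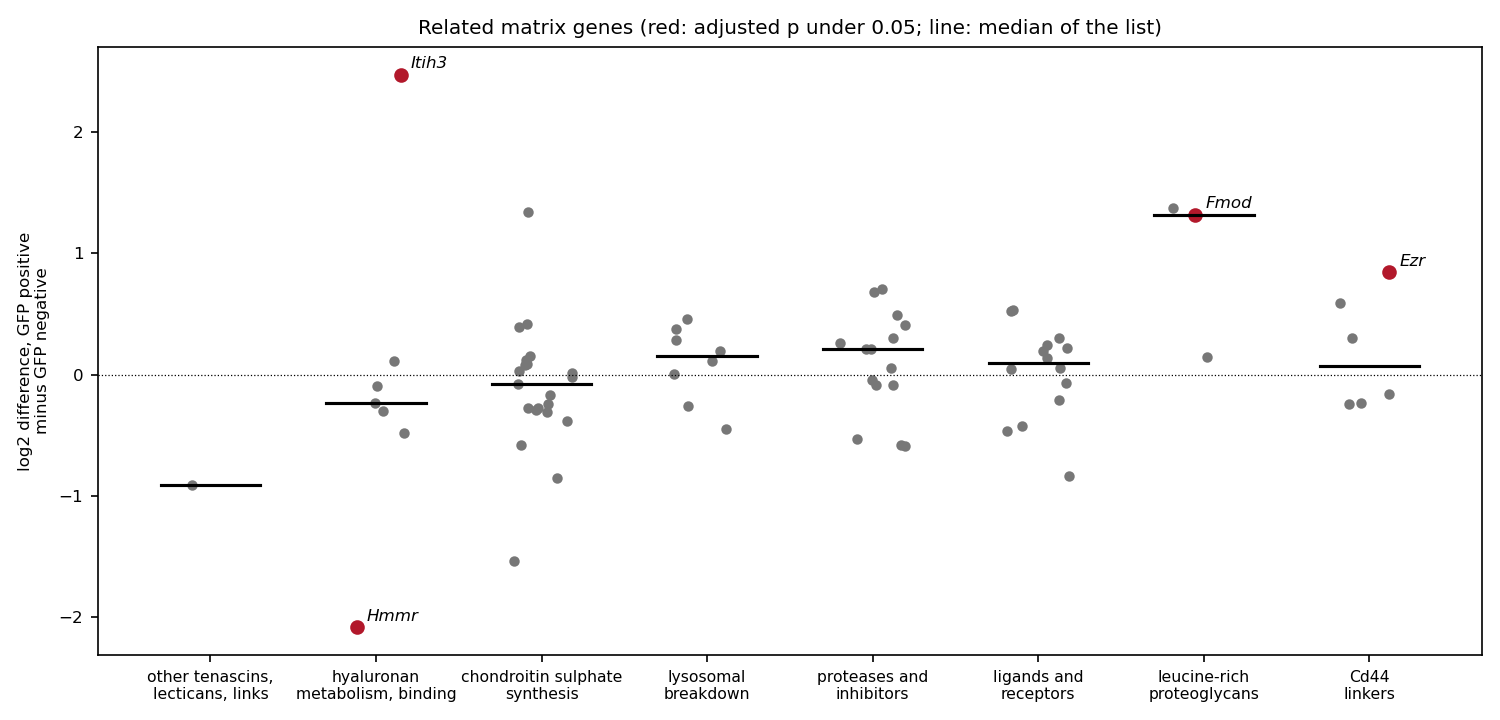
Difference between GFP positive and GFP negative cells on the log2 scale for tested genes of 8 lists around the matrix, 1 point per gene, with the list median as a line; red points passed at a limma adjusted p under 0.05. Itih3 (2.47), Fmod (1.32) and Ezr (0.84) are above 0 and Hmmr (−2.08) below, and the medians of the lists with 5 or more tested genes lie between −0.23 and 0.21.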

How the data were processed

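The arrays were Affymetrix Mouse Genome 430 2.0. The deposited values are log2 expression per probe set. The submitters' processing notes name GCRMA, with its version and a genome build not given in the sources used here. This method pulls dim probe sets to a low floor and equalises signal distributions between arrays, which would hide a change shared by all genes. Of 45101 probe sets, 34945 named exactly 1 gene in the platform annotation. A feature was tested where at least 3 of 6 arrays read log2 4 or more. Genes (brightest probe set, 10531), probe sets (18742) and contrasts of probe sets within a gene (8210) were fitted with lmFit and eBayes of limma 3.58.1 (R 4.3.3) on the group alone. Benjamini-Hochberg adjustment ran over all features of a fit, at a threshold of 0.05. The code was tested on simulated data. The labels do not say whether the replicate numbers pair the samples, and these fits did not pair them. The members, lists, named genes and alternatives were chosen with earlier results of these data known. All members are named; of each list, those past the threshold or, where none passed, the 2 brightest, and others were added after their values were seen. Marker lists covered 9 cell types. The mature oligodendrocyte, neuron, endothelial, microglia and ependymal lists had 1, 3, 1, 2 and 4 tested genes, of which 0 passed. Astrocyte markers had 4 of 8 higher, against 2.35% of all genes tested. With 3 arrays a group, the number of arrays limits precision.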

Additional observations from a re-analysis of the deposited data

How the results depend on the processing

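Direction was more stable than the calls. Tnc was lower in all 17 alternatives and passed in 13 (−2.42 to −1.84, limma adjusted p from 0.0035 to 0.0784). Vcan was lower in all 17 and passed in 10 (−1.14 to −0.94, 0.0065 to 0.145). Groups that do not overlap fix these signs when an array is left out. Ptprz1 changed sign without GFP negative replicate 3 (−0.018), with a range of −0.018 to 0.379 over the arrays left out. Leaving out 1 array, 0 to 2 members were lower and 0 to 1 higher (Cd44 without GFP negative replicate 1 and Bcan without GFP negative replicate 3), 0 to 3 member probe sets were lower, and 0 to 10 related genes were higher and 0 to 3 lower. With the replicate number as a block, 0 members and 0 member probe sets were lower, 1 related gene was higher and 0 lower, and over all genes 19 were higher and 8 lower. Deviations of same-numbered arrays from their group means correlated at −0.25, 0.05 and −0.50, and those of other pairs at −0.38 to 0.44. Deviations of 3 arrays from their mean sum to 0, so these values cannot decide whether the numbers pair the samples. With the 3′ to 5′ covariate the counts were 0 lower members, 0 lower member probe sets and 0 related genes in either direction, and over all genes 9 higher and 0 lower. With array weights 11 related genes were higher and 5 lower, and over all genes 1051 and 603. Without a filter 1 member probe set was lower. Without probe sets of suffix _s_at, _x_at or _a_at 0 related genes were lower, since the Hmmr probe set, of suffix _a_at, is left out. Over all genes the counts were 193 higher and 101 lower without a filter. They were 0 to 66 lower and 1 to 70 higher without a GFP positive array or GFP negative replicate 2. Without GFP negative replicate 1 the counts were 158 higher and 196 lower, and without GFP negative replicate 3 they were 801 higher and 443 lower. The cause of the remaining changes was not tested.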
